A study of Homo sapiens with 4 samples.

Results

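The pentose phosphate pathway enzymes examined here were PGLS, PGD, RPIA, RPE, TALDO1 and TKT, chosen by name as enzymes of the oxidative and non-oxidative branches, 6 of the 59652 genes of the count table. Huh7 and PLC cells, both human hepatocellular carcinoma cell lines of genotype WT, were cultured for 48 h in glucose-free medium to which 5 mM (low glucose) or 25 mM (high glucose) glucose had been added. RNA was depleted of rRNA and sequenced, with 1 library for each line and glucose concentration. With 4 libraries for 4 conditions there are no replicates, a difference within a line has no replicate check, and glucose cannot be told apart from any other difference between a pair of cultures.

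The pentose phosphate pathway branches off glycolysis at the first phosphorylated form of glucose. Its oxidative branch makes NADPH, which cells use for the synthesis of fatty acids and sterols and to keep glutathione reduced, and ends in a five-carbon sugar phosphate. In the non-oxidative branch, sugar phosphates are interconverted reversibly, so that ribose phosphate for nucleotides can be made from glycolytic intermediates or returned to them. The liver is known for a strong demand for NADPH in lipid synthesis.

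Reads counted on genes came to between 16049686 and 30279716 per library, and the 6 enzymes together took between 0.0882% and 0.151% of them. Levels are given as FPKM, the reads of a gene scaled by its length and by the total of counted reads in the library. Intervals are 95% intervals that cover counting error only. Among low values, genes with exactly 2 reads were 2.02 to 2.20 times as many as genes with exactly 1, a pattern that arises when both mates of a read pair are counted. Intervals of ratios were therefore also taken from halved counts, an alternative chosen after the data were seen. Of the 9 hepatocyte and liver tumour markers, 9 in Huh7 and 8 in PLC cells had an FPKM over 0.5. Their summed FPKM was 5219 and 5420 in Huh7 cells at 5 and 25 mM and 762 and 1647 in PLC cells, where TTR had 4 and 0 reads. The leukocyte marker CD3E had 0 reads in all 4 libraries, and PTPRC had at most 5. LYZ, on the same list, had an FPKM between 3.54 and 34.99.

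PGD, phosphogluconate dehydrogenase, which makes NADPH and ribulose phosphate in the oxidative branch, had the most abundant RNA of the 6 per length of the table. Its FPKM was 179.5 and 134 in Huh7 cells at 5 and 25 mM glucose and 148 and 144 in PLC cells, higher than 99.07% to 99.36% of the genes with an FPKM over 0.5 in each library. In the GRCh38 assembly it occupies bases 10398592 to 10420511 of chromosome 1 (plus strand). PGLS, the lactonase that acts just before PGD, lies on chromosome 19 from 17511636 to 17521288, on the plus strand. Its FPKM was far lower, 8.38 and 7.19 in Huh7 cells, and PLC cells had 10.8 and 14.8. The oxidative branch thus held the highest and one of the lowest levels of the 6.

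In the non-oxidative branch, TALDO1 and TKT exchange carbon units between sugar phosphates, while RPIA and RPE interconvert the five-carbon sugars. TALDO1, transaldolase, on chromosome 11 from 747415 to 765012 (plus strand), had an FPKM of 48.9 and 47.3 in Huh7 cells, with PLC values of 47.6 and 54.1. RPE, the epimerase, on chromosome 2 from 210002565 to 210022260 (plus strand), had 21.5 and 25.2 in Huh7 cells, compared with 30.1 and 23.5 for PLC cells. RPIA, the isomerase that makes ribose phosphate, also on chromosome 2, from 88691673 to 88750929 (plus strand), had 7.30 and 8.58 in Huh7 cells, and PLC cells had 11.4 and 5.77. These were levels within a narrow range for TALDO1 and a wider one for RPIA. TKT, transketolase, on chromosome 3 from 53224712 to 53256052 (minus strand), had 19.6 and 18.1 in Huh7 cells, with PLC values of 75.4 and 70.1, so that both PLC libraries lay above both Huh7 libraries.

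The order of levels in Huh7 cells was PGD, TALDO1, RPE and TKT, with PGLS and RPIA lowest. In PLC cells TKT stood at place 2 and RPE at place 4. The counting intervals of PGLS and RPIA overlapped at 5 mM in Huh7 cells (7.67 to 9.15 and 6.48 to 8.20) and in PLC cells (10.1 to 11.5 and 10.6 to 12.4). This order depends on the length used. The table merges all exons of a gene, which gives TKT 9502 bases against 2996 for its canonical (MANE Select) transcript, and TALDO1 2907 against 1199, while RPIA has 1813 by both. Per canonical transcript length, TKT reached 239 and 222 in PLC cells, above PGD with 218 and 211, and stood at place 3 in Huh7 cells with 62.1 and 57.3. The difference of a gene between libraries is the same under either length.

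Comparison of the lines asked which enzymes differed between Huh7 and PLC cells over both glucose levels. TKT was higher in PLC cells, and no other of the 6 passed the test. Its reads were 3978 and 5163 in Huh7 cells, compared with 21696 and 10688 for PLC cells at 5 and 25 mM. The FPKM ratio of PLC to Huh7 cells was 3.84 (3.72 to 3.98) at 5 mM and 3.86 (3.75 to 4.01) at 25 mM. By edgeR's quasi-likelihood test, with glucose as a block, TKT had a log2 fold change of 1.96 with a standard error of 0.20 (adjusted p = 4.38e-06 over 23217 genes). Of all genes tested, 42.9% were called between the lines, 21.1% higher and 21.8% lower in PLC cells, so 1 called gene of 6 is below the background. A line was represented by a pair of libraries of different glucose content. With glucose as a block, the 1 residual degree of freedom holds how far the line difference varies between the glucose levels. The test combines this with variation estimated over all genes, and does not measure the spread of replicate cultures. The hepatocyte markers given above moved with the lines as well, and their part in the difference was not tested.

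The share of TKT in the summed FPKM of the 6 enzymes was 6.87% and 7.50% in the Huh7 libraries and 23.3% and 22.5% in the PLC libraries. Within a library, a ratio of the genes does not depend on how libraries are scaled. The ratio of TKT to TALDO1 was 0.401 and 0.382 in Huh7 cells, and PLC cells had 1.58 and 1.29. By canonical transcript lengths it was 0.524 and 0.499 against 2.07 and 1.69. The balance of the pair of carbon-exchanging enzymes was thus on the side of TALDO1 in Huh7 RNA and of TKT in PLC RNA, under either length. RNA of the transketolase-like genes TKTL1 and TKTL2 was at 2 reads or fewer in each library.

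The promoters of TKT and TALDO1 are shown because the RNA of the first differed between the lines and that of the second, with which it shares substrates, had a log2 fold change near 0. Both are from RefSeq on GRCh38.p14, written 5′ to 3′ on the strand of the gene, and stop where the first exon of the table begins. Capitals mark GC boxes, GGGCGG on either strand, of which neighbouring copies may overlap by a base. The TKT stretch is chr3:53256053-53256272 on the minus strand, from 250 to 31 bases before the start site. The TALDO1 stretch is chr11:747214-747414 on the plus strand, from 250 to 50 bases before it.
TKT: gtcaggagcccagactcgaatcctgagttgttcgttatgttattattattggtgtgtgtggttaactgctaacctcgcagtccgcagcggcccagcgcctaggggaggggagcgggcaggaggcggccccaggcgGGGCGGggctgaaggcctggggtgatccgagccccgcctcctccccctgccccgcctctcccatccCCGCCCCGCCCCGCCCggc
TALDO1: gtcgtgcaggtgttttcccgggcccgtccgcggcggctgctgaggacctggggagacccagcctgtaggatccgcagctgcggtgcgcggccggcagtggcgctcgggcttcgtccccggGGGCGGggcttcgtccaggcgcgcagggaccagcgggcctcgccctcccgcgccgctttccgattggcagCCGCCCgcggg

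In the full window of 250 bases before to 50 bases after the start, TKT had 5 GC boxes, RPE 3, PGD and TALDO1 2 each, and PGLS and RPIA 1 each. At least 1 was present in 45.0% of 35116 such windows in RefSeq, and 5 or more in 5.14%. The antioxidant response element TGACNNNGC, searched on both strands, had 1 match each in PGD and RPE, and occurred in 13.3% of all windows. None of the 6 windows held the E-box CACGTG, which was found in 7.26% of all windows. The carbohydrate response element was searched only as a pair of exact such E-boxes with 5 bases between them. That form occurred in 2 of 35116 windows (0.00570%), so its absence from the 6 says nothing about the element. Looser forms of it were not searched. These matches are letters in a window and were not tested as sites.

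PGLS had, after TKT, the largest log2 fold change between the lines over both glucose levels, although at 5 mM its ratio lay below those of RPIA and RPE. There were 509 and 614 reads in Huh7 cells, with PLC values of 927 and 675. Its FPKM ratio of PLC to Huh7 cells was 1.28 (1.15 to 1.44) at 5 mM and 2.05 (1.84 to 2.30) at 25 mM. The log2 fold change of 0.71 (standard error 0.27) missed the threshold, with an adjusted p of 0.0509 by edgeR. By limma it passed with 0.0464, and the range over the 8 fits run was 0.0464 to 0.118. The other members had log2 fold changes between -0.08 (PGD) and 0.20 (RPE), with standard errors of 0.19 to 0.35 and adjusted p-values of 0.545 or more by edgeR. RPIA and RPE were higher in PLC than in Huh7 cells at 5 mM (FPKM ratios of 1.56 and 1.40) and lower at 25 mM (0.677 and 0.931), so that a comparison over both levels averages over opposite values.

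Next, the change with glucose was examined within each line as the ratio of FPKM at 25 mM to that at 5 mM, with 0.1 added to both values. The thresholds are those by which the study screened lncRNAs, an FPKM above 0.5 together with a ratio above 1.5 or below 0.67. Here they were applied to coding enzymes, with FPKM taken from the gene counts, and an FPKM above 0.5 in either library was enough. In Huh7 cells 0 of the 6 enzymes passed them, against 27.8% of the genes that reached this FPKM in either library. In PLC cells 1 of the 6 passed, against 43.3% of such genes. That gene was RPIA, with 628 reads at 5 mM and 168 at 25 mM in PLC cells. Its ratio there was 0.509 (0.423 to 0.599), beside 17% of all genes past the lower threshold.

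In the oxidative branch, PGD had 12789 and 13467 reads in Huh7 cells, or a ratio of 0.748 (0.730 to 0.767), the lowest of the 6 in that line. In PLC cells PGD had 14971 and 7678 reads and a ratio of 0.968 (0.941 to 0.995). From halved counts the PLC interval of PGD reached from 0.930 to 1.01. With TMM or DESeq2 size factors the ratio was 0.890 (0.866 to 0.915) or 0.883 (0.858 to 0.907), and after removal of the trend with GC and length its ratio was 1.0005. PGLS had a ratio of 0.859 (0.761 to 0.966) in Huh7 cells, while in PLC cells it was 1.37 (1.24 to 1.52). From halved counts the Huh7 interval of PGLS, 0.724 to 1.02, included 1.

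In the non-oxidative branch, RPE had 1620 and 2676 reads in Huh7 cells, with a ratio of 1.17 (1.10 to 1.25), and 3215 and 1329 reads in PLC cells, with a ratio of 0.781 (0.731 to 0.832). Both intervals of RPE also excluded 1 from halved counts. RPIA had 283 and 468 reads in Huh7 cells and a ratio of 1.17 (1.01 to 1.37), which included 1 from halved counts (0.950 to 1.46), with TMM (0.984 to 1.33) and with DESeq2 size factors (0.996 to 1.35). The sugar isomerase and epimerase thus lay above 1 in Huh7 cells and below 1 in PLC cells under all 3 scalings of the libraries, while PGLS lay the other way round.

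For TKT and TALDO1 the ratios lay between 0.923 and 1.14. The ratio of TKT was 0.923 (0.885 to 0.961) in Huh7 cells, while in PLC cells it was 0.929 (0.908 to 0.951). TALDO1 had 0.968 (0.924 to 1.01) in Huh7 cells, while in PLC cells it was 1.14 (1.08 to 1.19). Scaling of the libraries by TMM or by DESeq2 size factors in place of totals shifts all PLC ratios by -0.12 or -0.13 on the log2 scale and all Huh7 ratios by -0.039 or -0.022. With these, the PLC ratio of TKT was 0.855 or 0.848. That of TALDO1 was 1.05 (0.995 to 1.10) or 1.04 (0.986 to 1.09), with intervals that include 1. In Huh7 cells the interval of TALDO1 then excluded 1, with ratios of 0.942 (0.899 to 0.988) or 0.953 (0.910 to 0.9994).

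The ratio of PLC to Huh7 glucose ratios was 0.430 (0.343 to 0.538) for RPIA and 0.664 (0.608 to 0.726) for RPE. It was 1.60 (1.37 to 1.87) for PGLS, 1.29 (1.25 to 1.34) for PGD, 1.17 (1.10 to 1.26) for TALDO1 and 1.01 (0.961 to 1.06) for TKT. Under TMM the value of TKT was on the other side of 1, at 0.953 (0.908 to 0.999), and with DESeq2 size factors it was 0.933 (0.890 to 0.979). Ratios on opposite sides of 1, with counting intervals that exclude 1 in both lines, were found for 3 of the 6 (PGLS, RPIA and RPE), against 10.2% of 18108 genes with an FPKM over 0.5 in both lines. From halved counts this held for RPE alone, against 5.94% of those genes. A counting interval is narrower with more reads, and those genes were not matched to the enzymes by reads. The shares are therefore no measure of an excess among the 6. With 1 library per condition these differences between the lines could not be tested.

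A change with glucose shared by both lines was tested across all genes with the cell line as a block. None of the 6 enzymes was called by edgeR, where 0.379% of the 23217 genes were (0.0646% higher and 0.314% lower at 25 mM). The number with an unadjusted p-value under 0.05 was 0 of 6 by edgeR, by DESeq2 and by limma. The log2 fold changes ran from -0.45 (RPIA, standard error 0.35, adjusted p = 0.850) to 0.04 (PGLS, standard error 0.27, adjusted p = 0.996) by edgeR. Below 0 were 5 of the 6, among them TALDO1 at -0.01, beside 11889 of the 23217 genes tested. The median was -0.17 for the 6 enzymes and -0.01 over all genes tested. PGD had -0.31 (standard error 0.19, adjusted p = 0.766 by edgeR). Opposite values in the lines partly offset each other in this test.

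Reads can be shared with other genes. Exons of RPE shared 840 bases, or 23.8% of its length, with KANSL1L on the opposite strand, and whether the counting used the strand is not given in the sources used here. The glucose ratio of KANSL1L was 1.01 for Huh7 cells and 1.12 for PLC cells, beside 1.17 and 0.781 for RPE. Of the windows of 50 bases in the canonical RPE transcript, 12.7% occur in RPEL1, an intronless copy that had 2 reads or fewer in each library, and 5.81% of those of PGD occur in the pseudogene PGDP1, which had 0 reads. Exons of PGLS shared 254 bases, or 8.94% of its length, with AC010618.3 on the opposite strand, which had 48 to 143 reads per library. The glucose ratio of AC010618.3 was 1.38 in Huh7 and 0.765 in PLC cells, beside 0.859 and 1.37 for PGLS. In GENCODE, 20.0209% of the windows of PGLS also lie in the antisense transcripts of PGLS-DT. RPIA, TALDO1 and TKT held 0% of such windows in other annotated transcripts.

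The enzymes next to the pathway were taken as a list of 14 genes, of which 10 passed the filter on low counts. In the test between lines 1 was higher and 2 were lower in PLC cells, 3 of 10 where 42.9% of all genes tested were called. H6PD, which carries out the oxidative steps in the endoplasmic reticulum, had 3576 and 5389 reads in Huh7 cells, compared with 1733 and 1861 for PLC cells. This gave a log2 fold change of -1.08 with a standard error of 0.25 (adjusted p = 0.00326 by edgeR). PRPSAP1, which associates with the enzymes that turn ribose phosphate into the nucleotide precursor PRPP, was lower as well, with -0.67 (standard error 0.25, adjusted p = 0.0469 by edgeR), a call lost in 4 of the 8 fits.

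PRPS2, one of those PRPP-making enzymes, was the gene higher in PLC cells. It had 0 reads in both Huh7 libraries and 400 and 349 reads in PLC cells, or 4.79 and 7.88 FPKM. Against a floor of 3 reads per library, it was at least 94.1-fold higher at 5 mM and at least 218-fold higher at 25 mM. PRPS1, the closest enzyme to PRPS2, had reads in all 4 libraries, with FPKM values of 19.996 and 23.4 in Huh7 cells, and PLC cells had 23.1 and 32.9. Between the lines PRPS1 had a log2 fold change of 0.36 with a standard error of 0.22 (adjusted p = 0.225 by edgeR). In the test of a shared glucose change, 0 of the 10 neighbours were called by edgeR, DESeq2 or limma, and 0 had an unadjusted p-value under 0.05 by edgeR. Their median log2 fold change was 0.20.

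Within PLC cells H6PD had a glucose ratio of 2.01 (1.90 to 2.16), against 1.07 (1.03 to 1.12) in Huh7 cells. SHPK, which phosphorylates sedoheptulose and so feeds the non-oxidative branch, had 54 and 100 reads in PLC cells and a ratio of 3.06 (2.48 to 4.96, the interval without the added 0.1). With PRPS2 at 1.63 (1.42 to 1.90), these were the 3 of the 10 neighbours with enough FPKM that were past the thresholds in PLC cells, where 26.2% of all genes were past the upper one.

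Other enzymes that make NADPH were a list of 10 genes, 9 of them tested. A shared glucose change was called for 2 of the 9, both lower at 25 mM, where 0.314% of all genes tested were called lower. The list was chosen with earlier results of these data known, so this count is not an independent result. Which cofactor each enzyme used in these cells was not measured. MTHFD2, of mitochondrial one-carbon metabolism, had 3416 and 1648 reads in Huh7 cells, with PLC values of 11383 and 2109. The shared log2 fold change came to -1.61 (standard error 0.21, adjusted p = 0.00492 by edgeR). ALDH1L2, which oxidises a formyl folate in mitochondria and forms NADPH, had -1.73 (standard error 0.25, adjusted p = 0.00971 by edgeR), and its call was lost in 3 of the 8 fits. By glucose ratio, 4 of 9 were past the lower threshold in each line, against 13.7% of genes with enough FPKM in Huh7 and 17% in PLC cells. These were MTHFD2, ALDH1L2, ME1 and ME3, the last at 0.629 in Huh7 and 0.573 in PLC cells. Past the upper threshold was 1 in PLC cells, IDH2 at 1.51, against 26.2% of genes, and 0 in Huh7 cells. ME1, the cytosolic malic enzyme, had ratios of 0.658 in Huh7 and 0.538 in PLC cells. Its shared log2 fold change of -0.83 was not called by edgeR (adjusted p = 0.130), and was called by DESeq2 (0.0184) and by edgeR with no filter on low counts (0.0235), in a range of 0.0184 to 0.99996 over the 8 fits. The median of the 9 was -0.34, beside -0.17 for the pentose phosphate pathway enzymes. Between the lines 7 of the 9 were called, 5 higher and 2 lower in PLC cells, against 42.9% of all genes tested. The number called was 6 by DESeq2 and 5 without glucose as a block. By edgeR, the lower ones were ME1 (log2 fold change -1.45, standard error 0.21, adjusted p = 0.000106) and IDH1 (-0.60, standard error 0.19, adjusted p = 0.0191). The higher ones were ME3, MTHFD1, MTHFD2, ALDH1L2 and NNT, with log2 fold changes from 1.24 (NNT) to 2.75 (ALDH1L2).

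**Figure D1:**
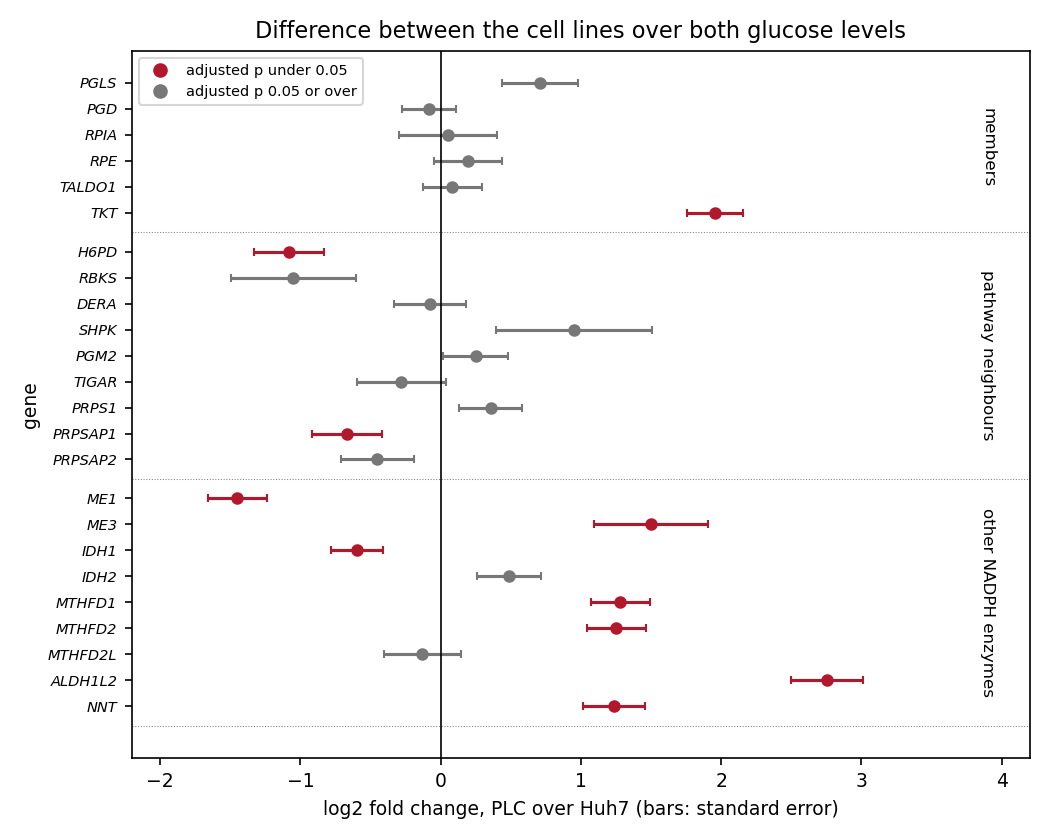
log2 fold change of PLC over Huh7 cells (horizontal axis) over both glucose levels for the 6 enzymes, 9 pathway neighbours and 9 other NADPH-making enzymes, from edgeR, with bars for the standard error. Red points have an adjusted p-value under 0.05. Of the 6 enzymes TKT alone is red, at 1.96, while H6PD lies at -1.08. PRPS2 is left out because both Huh7 libraries had 0 reads.

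Finally, genes with profiles most like those of the enzymes were sought among 9778 other genes with at least 100 reads in each library, by the root mean square difference of log2 CPM after centring over the 4 libraries. ABHD14B (0.03), ATP6AP2 (0.03) and CGGBP1 (0.04) were closest to TKT. For PGD they were SLC26A11, DCAF17 and MTHFD2L, for TALDO1 ZFP1, EPM2AIP1 and RANBP9, and for RPE NOSIP, TIMM23 and SH3BP5L. FAM200A, C17orf80 and LRIG2 were closest to RPIA, and POLM, NBPF8 and SLAIN2 to PGLS. The nearest other enzyme of the pathway ranked 330 for RPIA (RPE), 623 for PGD (TALDO1), 1470 for TALDO1 (PGD), 1694 for RPE (TALDO1), 2027 for TKT (PGLS) and 2482 for PGLS (TALDO1).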

How the data were processed

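RNA from Huh7 and PLC cells at 5 or 25 mM glucose was sequenced, with 1 library per group, and grouped by the sample titles. The authors deposited a count for each gene and library, the number of assigned reads without normalization. Per the labels, the submitters' processing notes name HISAT2, featureCounts and hg38, while versions, annotation release and use of strand are not given in the sources used here. Of 59657 lines, 5 belong to a broken entry for ANK2 and were left out.

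FPKM was calculated from counts, table lengths and library totals. Ratio intervals are exact binomial (Clopper-Pearson), and those of ratios of ratios use the counting variances of the 4 counts. Counts were tested with edgeR 4.0.16 (quasi-likelihood, filterByExpr, TMM, Benjamini-Hochberg adjustment over all genes, threshold 0.05) in one fit with cell line and glucose, which leaves 1 residual degree of freedom per gene. A standard error is the log2 fold change divided by the square root of F. DESeq2 1.42.0 and limma 3.58.1 were alternatives. The code was tested on simulated data. Transcripts and windows were taken from GENCODE release 44 on GRCh38, the build of hg38, and promoters from RefSeq, with all 6 genes matched by symbol.

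The enzymes and gene lists were chosen with earlier results of these data known. Named were the 6 enzymes, genes of both lists, genes that overlap an enzyme and the 3 genes with the closest profiles per enzyme. Other names (PGDP1, marker genes and genes beside PRPS2) were added for checks after values were seen. The genes had to have 100 reads in each library for profiles. Alternatives were other pseudocounts, filters, thresholds, scalings and tools, and no block. Because 3 libraries leave no residual degree of freedom, no library was left out in turn. The smallest library, PLC cells at 25 mM, had 16049686 reads, at which 3 reads stand for 0.187 CPM.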

Additional observations from a re-analysis of the deposited data

Results flagged for a closer look

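Glucose ratios on opposite sides of 1 in the lines, with counting intervals that exclude 1 in both, were found for 3 of the 6 enzymes. In the lists this held for DERA, among 9 neighbours with an FPKM over 0.5 in both lines, and for IDH2, among 9 such NADPH-making enzymes. The share over all genes was 10.2% of the 18108 with an FPKM over 0.5 in both lines, so the 2 lists were near the background. Those genes were not matched by reads to the enzymes or the lists, and the width of an interval depends on reads. With 1 library per condition the difference between the lines could not be tested. The ratio of the PLC to the Huh7 glucose ratio was 1.60 for PGLS, 0.430 for RPIA and 0.664 for RPE. For DERA, which splits deoxyribose phosphate, it was 1.60 (0.861 in Huh7 and 1.38 in PLC cells), and for IDH2, a mitochondrial enzyme that makes NADPH, 1.62 (0.936 and 1.51). From halved counts, both intervals still excluded 1 for RPE and DERA, and no longer for PGLS, RPIA and IDH2, against 5.94% of those 18108 genes. With TMM or DESeq2 size factors it was lost for RPIA, and held for PGLS, RPE, DERA and IDH2.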

How the results depend on the processing

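The call of TKT between the lines held in the 8 fits run, with log2 fold changes from 1.92 to 1.96, and no fit called a shared glucose change for any of the 6 enzymes. Between the lines limma called 2 of the 6, PGLS and TKT, and every other fit called TKT alone. With ratios over 1.2 or under 0.83, 1 enzyme passed in Huh7 cells (PGD) and 3 in PLC cells (PGLS, RPIA and RPE), while with ratios over 2 or under 0.5 the number in PLC cells was 0. RPIA alone passed in PLC cells, and none in Huh7 cells, under the other 7 alternatives. Over all genes, the 88 shared calls (15 higher, 73 lower) became 19 (0 and 19) with library totals, 526 (242 and 284) with no filter, 27 (0 and 27) with at least 10 counts in every library, 194 (63 and 131) by DESeq2, 21 (0 and 21) by limma and 0 without the cell line block, where 52 had an unadjusted p-value under 0.05. With at least 10 counts in every library, of 16164 genes tested, 6340 were called between the lines in place of 9969. The ratio of the PLC to the Huh7 glucose ratio of TKT, 1.01, fell below 1 with TMM (0.953), DESeq2 size factors (0.933) and the GC and length trend removed (0.961). Other values that changed direction were the PLC glucose ratio of PGD, 1.0005 with the GC and length trend removed, and the shared log2 fold changes of TALDO1, 0.069 with library totals, and of RBKS, -0.00011 without the block. The causes of these changes were not tested. The call of MTHFD2 was lost without the cell line block. Depth limits the intervals of PGLS and RPIA most, which had 168 to 927 reads per library.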

Other observations

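PRPS2, with 0 reads in Huh7 cells, lies on the X chromosome from 12791355 to 12824222. Of the 3 protein-coding genes of the table on either side, named after the values were seen, MSL3 had 280 and 500 reads in Huh7 cells, compared with 1172 and 721 for PLC cells at 5 and 25 mM. TMSB4X, which encodes an actin-binding peptide, had 443 and 459 reads in Huh7 cells, and PLC cells had 32708 and 25216. AMELX, FRMPD4, TLR7 and TLR8 had 2 reads or fewer in each library.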
